A study of Bos taurus
Mus musculus with 10 samples.

Results

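The genes described here encode the enzymes of cholesterol, fatty acid and glyceride synthesis and their main regulators in bovine embryonic stem cells. The list holds 29 genes, of which 28 were found by symbol among the 27590 genes of the bovine table: 17 sterol synthesis enzymes, 3 sterol regulators, 5 fatty acid enzymes and 3 acyltransferases of glyceride synthesis. STARD4, a sterol carrier gene, was not matched and is not analysed here. The cells were bovine embryonic stem cell lines 1, 2, 4, 8 and 11, labelled wild type, derived from blastocysts of day 7.5 and grown on mouse embryonic fibroblasts. The fibroblasts came from E13.5 fetuses of CD-1 mice and had been treated with mitomycin C for 2 h so that they no longer divide. Every line was divided over a pair of wells after culture in mTeSR1 medium with 2.5 µM IWR-1. One well kept that medium and the other received it without IWR-1, and RNA of the whole co-culture was taken after 1 day. IWR-1 blocks tankyrases, which keeps AXIN from being degraded and holds down signalling through beta-catenin, the Wnt effector. The question was how its withdrawal alters transcripts in the stem cells, with 5 wells per medium and 1 well per line in each.

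Cholesterol is built from acetyl-CoA through mevalonate, isoprenoid units and squalene, which is closed to lanosterol and then trimmed and reduced. Fatty acids are built from the same precursor after citrate is split in the cytosol, and are then elongated, desaturated and attached to glycerol. Both branches are controlled by the SREBP transcription factors, which are held in the endoplasmic reticulum by INSIG proteins while sterols are plentiful; SREBP2 acts mainly on sterol genes and SREBP1 mainly on fatty acid genes. Pluripotent cells divide fast and are known for active lipid synthesis.

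Values are normalised reads, that is, reads per gene divided by a scaling factor of the library, and 48064953 to 64345738 reads per library fell on bovine genes. The pluripotency genes POU5F1 (18294 to 62019 normalised reads) and SOX2 (13371 to 22072) were high in every well. The summed level of all 8 pluripotency markers ran from 98474 to 189219 with IWR-1 and from 95298 to 187899 without it. Each of the 5 lines had the lower sum in its well without IWR-1. DNMT3B, the most abundant of the 8, weighs most on these sums, with means of 43390 with IWR-1 and 36481 without it. The means of LIN28A were 23307 and 26421, so the sums do not describe the markers as a set. Of these markers NANOG rose (log2 change 0.33 ± 0.06 SE, limma adjusted p = 0.0411), while DNMT3B (-0.27 ± 0.07) and TDGF1 (-0.71 ± 0.23, 9.73 to 307 normalised reads) were lower in 5 of 5 lines without being called. LIN28A (0.17 ± 0.06) and SALL4 (0.08 ± 0.05) were higher in 5 of 5 lines, also without being called. Of the 8 markers, 4 had a positive and 4 a negative log2 change, with a median of 0.0095. Line 4 stood apart: the summed level of 10 fibroblast markers on bovine genes was 112945 and 124305 in its wells with and without IWR-1, whereas lines 1, 2, 8 and 11 had 8845 to 28686 with IWR-1 and 11031 to 40190 without it. COL1A1 led this list and none of its genes was at 0 in every well. The share of reads on mouse genes was 23.4% to 42.3% with IWR-1 and 21.2% to 41.4% without it, highest in line 4 in both media and lower without IWR-1 in 5 of 5 lines. The fibroblast markers summed higher without IWR-1 in all 5 lines, with COL1A1 at 0.36 ± 0.08 SE, but the single markers differed: 0 of 10 were called, 3 were higher in 5 of 5 lines, and COL1A2 (-0.30 ± 0.10) and DCN (-0.24 ± 0.13) were lower in 4 of 5. In lines 2 and 8, 4 of 10 were higher, with median log2 changes of -0.08 and -0.05. How reads that align to both genomes, or to near-identical gene copies, were counted is not stated by any label or file header. The part that feeder reads and fibroblast-like cells have in the values below was not tested. In whole wells, fewer cells of a type and less RNA per cell cannot be told apart.

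Of the 28 genes, 1 rose after withdrawal of IWR-1 and 0 fell, in a limma fit with the line as a block in which adjusted p under 0.05 was called. Over all 18506 tested genes the same rule called 0.951% in either direction, 0.886% as higher and 0.0648% as lower. The gene that rose was MOGAT1, an acyltransferase gene of glyceride synthesis. The other 27 had log2 changes between -0.08 and 0.28. Small positive values were common among them: 25 of the 28 (89.3%) had a positive log2 change, against 48.4% of all tested genes, and 11 (39.3%) were higher without IWR-1 in 5 of 5 lines, against 6.2%; 0 were lower in 5 of 5 lines, against 4.92%. At an unadjusted p under 0.05, 8 of 28 (28.6%) were higher, against 6.32% of all genes, and 0 were lower, against 3.78%. DESeq2 with the block called 2 of the 28, MOGAT1 and MVD, and 2.28% of all genes. The median log2 change was 0.11 over the 28 and -0.0046 over all tested genes. Most of the 28 are abundant transcripts, and the median standard error was 0.07 for them and 0.09 over all genes. These counts describe a list that was chosen with earlier results known, and they carry no test.

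**Figure D1:**
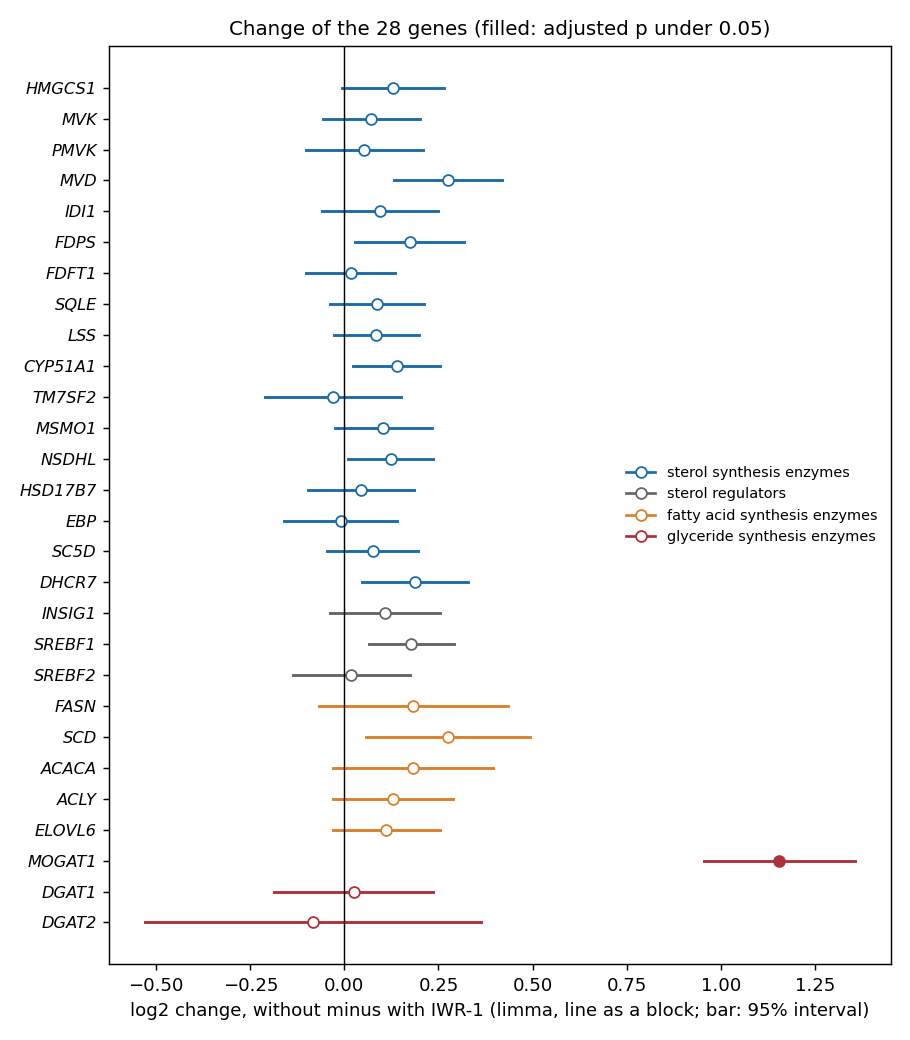
Log2 change without minus with IWR-1 for each of the 28 genes (x axis) from limma with the line as a block; bars are 95% intervals, colours mark the gene groups, and a filled point marks adjusted p under 0.05. MOGAT1 stands alone at 1.16, while the other points lie between -0.08 and 0.28.

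MOGAT1 (gene ID 407225) encodes monoacylglycerol acyltransferase, which joins a fatty acid to monoacylglycerol to give diacylglycerol. With IWR-1 it stood at 2776 normalised reads in line 1, 3040 in line 2, 1210 in line 4, 2981 in line 8 and 2304 in line 11. Without IWR-1 the values were 7357, 8202, 2060, 6402 and 4834 in the same order. Every line was higher without IWR-1, and line 4 was the lowest in both media. The groups overlapped because the well of line 4 without IWR-1 lay below the wells of lines 1, 2, 8 and 11 with it. The ratio within a line was 2.65 in line 1, 2.70 in line 2, 1.70 in line 4, 2.15 in line 8 and 2.10 in line 11, so that the line with the most fibroblast markers had the smallest one. The mean over lines was 2462 ± 757 (SD, n = 5) in the wells that kept IWR-1 and 5771 ± 2422 (SD, n = 5) in those without it. The fitted fold was 2.23 with a 95% interval of 1.94 to 2.56 (log2 change 1.16 ± 0.09 SE, limma adjusted p = 0.000656). By p-value it was number 3 among the 18506 tested genes, and by log2 change number 39.

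The call for MOGAT1 held when any 1 line was left out (log2 change 1.09 to 1.25). It ended without the block, where the log2 change was the same and the limma adjusted p was 1.00. It also ended with each well's mouse share as a covariate, where the log2 change was 1.04 ± 0.20 SE (limma adjusted p = 1.00). That limma fit called 0 of all 18506 genes, with 456 at an unadjusted p under 0.05, and its median standard error over all genes was 0.21, against 0.09 without the covariate.

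The other acyltransferase genes gave no such difference. DGAT1 and DGAT2 encode enzymes of separate families that both perform the last step of triacylglycerol synthesis, from diacylglycerol. DGAT1 stood at 3547, 2736, 1950, 3115 and 3115 normalised reads with IWR-1 in lines 1, 2, 4, 8 and 11, and at 3197, 2102, 2466, 3674 and 3284 without it. Lines 1 and 2 were lower without IWR-1 and lines 4, 8 and 11 higher, and the groups overlapped (log2 change 0.02 ± 0.10 SE, 95% interval -0.19 to 0.24, limma adjusted p = 0.974). The direction turned without line 4 (-0.05) or line 8 (-0.03).

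DGAT2 was scarce, with 25 to 106 reads per library before scaling, and counting error weighs more on it than on the other genes of the list. It stood at 106, 58.8, 67.8, 73.2 and 32.1 normalised reads with IWR-1 in lines 1, 2, 4, 8 and 11. Without IWR-1 the values were 104, 76.1, 41.6, 91.6 and 24.3. Lines 2 and 8 were higher without IWR-1 and lines 1, 4 and 11 lower (log2 change -0.08 ± 0.20 SE, 95% interval -0.53 to 0.36, limma adjusted p = 0.960; 0.07 without line 4). A change of the size seen in MOGAT1 lies outside the intervals of both DGAT genes.

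**Figure D2:**
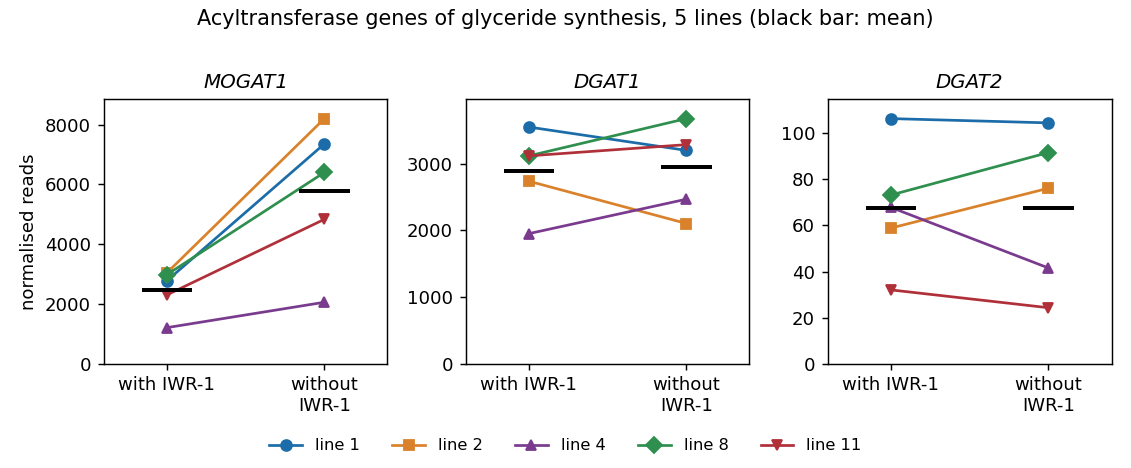
Normalised reads (y axis, from 0) of MOGAT1, DGAT1 and DGAT2 with and without IWR-1 (x axis); each coloured line joins the wells of 1 cell line and the black bar is the mean. All 5 lines climb for MOGAT1, with line 4 the lowest, while the lines of DGAT1 and DGAT2 go both ways.

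Among the 5 fatty acid enzyme genes 0 were called, with 1 at an unadjusted p under 0.05, and 0 were called by edgeR or DESeq2 on recovered reads with the block. All 5 had positive log2 changes, from 0.11 to 0.27 (median 0.18). Line 2 gave the largest change for each of the 5 and line 8 the smallest.

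FASN (gene ID 281152), the fatty acid synthase, stood at 98164, 110438, 88942, 71448 and 89690 normalised reads with IWR-1 in lines 1, 2, 4, 8 and 11. Without it the values were 112262, 177903, 91502, 62065 and 102887. Line 2 was the highest in both media and line 8 the lowest in both. Line 8 was also the 1 line that was lower without IWR-1, so that the spread between lines widened from 1.55-fold to 2.87-fold. The log2 change was 0.18 ± 0.11 SE (limma adjusted p = 0.703), or 0.06 without line 2.

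ACACA, the acetyl-CoA carboxylase that supplies malonyl-CoA, likewise had its largest change in line 2 and its smallest in line 8. It stood at 10970, 12514, 11064, 10505 and 13005 with IWR-1 and at 13786, 18689, 11437, 9113 and 14513 without it, in lines 1, 2, 4, 8 and 11. Line 8 was again the lowest in both media and lower without IWR-1 (log2 change over lines 0.18 ± 0.10 SE, limma adjusted p = 0.603, or 0.08 without line 2).

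SCD, the desaturase that makes oleate from stearate, differed little between lines with IWR-1: 80409, 80188, 78354, 73754 and 80381 in lines 1, 2, 4, 8 and 11. Without IWR-1 the values were 90717, 131262, 88054, 75382 and 98066. All 5 lines were higher without IWR-1, line 2 by the most and line 8 by the least. Line accounted for 40.8% of the variation in its log values and the medium for 34.4% (shares of the sum of squares). The log2 change was 0.27 ± 0.10 SE (95% interval 0.06 to 0.49, limma adjusted p = 0.337), or 0.17 without line 2.

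ELOVL6, an elongase of palmitate, stood at 11309, 11298, 8938, 9618 and 8647 with IWR-1 and at 12748, 14294, 9049, 9639 and 8804 without it, in the same order of lines. Its changes in lines 4, 8 and 11 were at most 0.03 on the log2 scale, against 0.17 in line 1 and 0.34 in line 2. ACLY, the citrate lyase that supplies cytosolic acetyl-CoA, ranged from 30408 to 41104 with IWR-1 and from 31403 to 51846 without it (log2 change 0.13 ± 0.07 SE; 0.38 in line 2 and -0.04 in line 8). Without line 2, the log2 changes of ACLY and ELOVL6 were 0.07 and 0.05.

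**Figure D3:**
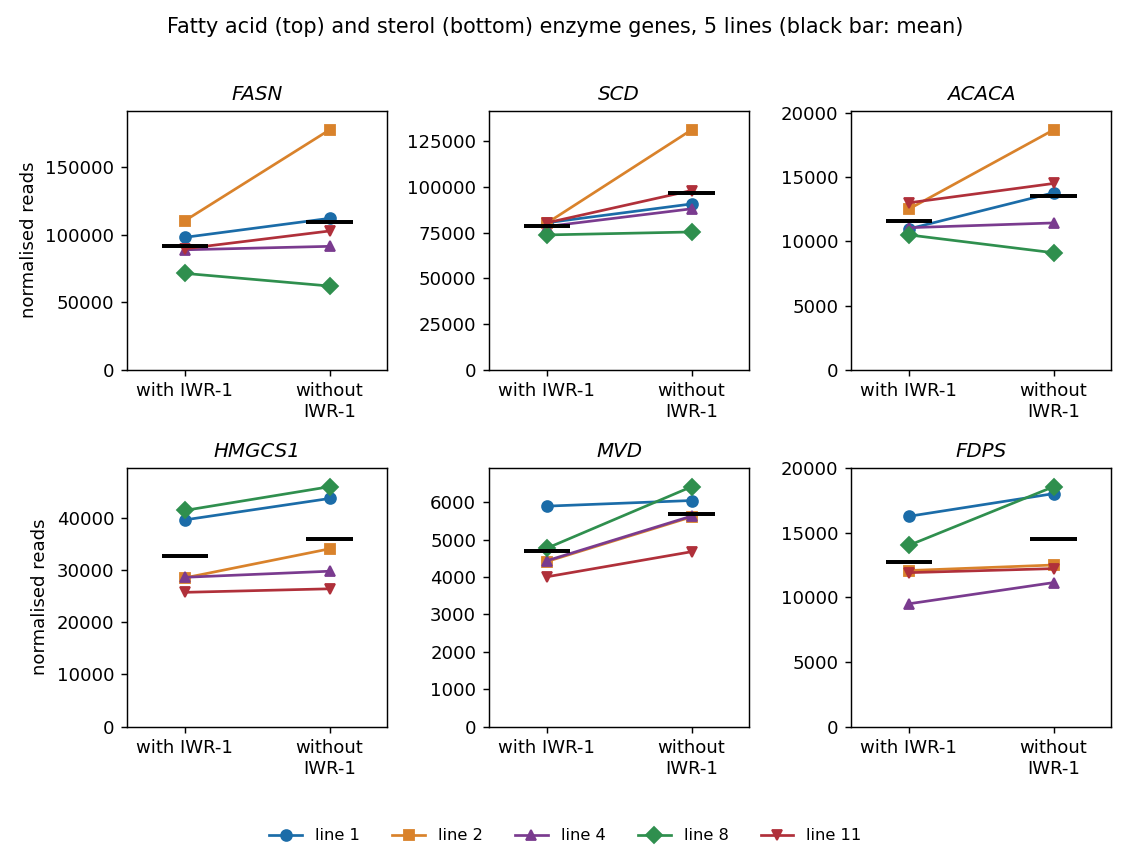
Normalised reads (y axis, from 0) of 3 fatty acid genes (top) and 3 sterol genes (bottom) with and without IWR-1 (x axis); each coloured line joins the wells of 1 cell line and the black bar is the mean. Line 2 climbs most for FASN, SCD and ACACA, where line 8 is lowest, whereas lines 1 and 8 are the highest for HMGCS1 and FDPS.

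None of the 17 sterol enzyme genes was called, with 5 at an unadjusted p under 0.05; edgeR called 0 and DESeq2 called 1, MVD. Of the 17, 15 had a positive log2 change and 7 were higher without IWR-1 in 5 of 5 lines. The log2 changes ran from -0.03 to 0.28 with a median of 0.09. The highest upper bound among the 95% intervals was 0.42, so that a doubling lies outside each of them.

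In the mevalonate branch, MVD, the decarboxylase that makes isopentenyl diphosphate, had the largest change. With IWR-1 it stood at 5896, 4413, 4435, 4769 and 4006 normalised reads in lines 1, 2, 4, 8 and 11, and without it at 6047, 5608, 5630, 6416 and 4677. Every line was higher without IWR-1, line 1 by the least (0.04 on the log2 scale) and line 8 by the most (0.43). The log2 change was 0.28 ± 0.06 SE (limma adjusted p = 0.0931). DESeq2 gave 0.27 with an adjusted p of 0.0222, and edgeR an adjusted p of 0.0892.

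HMGCS1, the synthase that opens the pathway, stood at 39570, 28463, 28578, 41381 and 25698 with IWR-1 and at 43669, 34026, 29741, 45924 and 26375 without it. All 5 lines were higher without IWR-1, and lines 1 and 8 were the highest in both media (log2 change 0.13 ± 0.06 SE, limma adjusted p = 0.536). FDPS, which joins isoprenoid units to farnesyl diphosphate, stood at 16274, 12077, 9502, 14023 and 11912 with IWR-1 and at 18027, 12504, 11144, 18565 and 12226 without it. It too was higher without IWR-1 in each line, by 0.40 on the log2 scale in line 8 and by 0.04 in line 11 (0.17 ± 0.07 SE over lines, limma adjusted p = 0.376).

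The other genes of this branch had changes of both signs over the lines. MVK, the mevalonate kinase, stood at 7193, 5034, 3440, 3962 and 4127 with IWR-1 and at 7131, 5793, 3506, 4483 and 4010 without it, highest in line 1 and lowest in line 4 in both media (log2 change 0.07 ± 0.06 SE). Between the highest and lowest lines it differed 2.09-fold with IWR-1 and 2.03-fold without it. IDI1, the isomerase, was at 0.09 ± 0.07 and PMVK, the next kinase, at 0.05 ± 0.07. Line 8 gave IDI1 a log2 change of 0.39, while line 11 gave -0.07. Without line 8 the value of IDI1 was 0.02, and without line 2 those of PMVK and MVK were 0.0059 and 0.04.

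Downstream of farnesyl diphosphate, 4 of 11 genes were higher without IWR-1 in each line. DHCR7, the reductase of the final step to cholesterol, stood at 15095, 13680, 11758, 11339 and 12016 with IWR-1 and at 16385, 18384, 13245, 12487 and 12709 without it in lines 1, 2, 4, 8 and 11. Line 2 gave the largest change, 0.43 on the log2 scale against 0.08 to 0.17 in the other lines (0.19 ± 0.06 SE over lines, limma adjusted p = 0.290). CYP51A1, the lanosterol demethylase, stood at 11022, 8012, 8259, 9119 and 6465 with IWR-1 and at 12417, 8895, 8670, 10595 and 6870 without it. Line 1 was its highest and line 11 its lowest in both media (0.14 ± 0.05 SE, limma adjusted p = 0.372).

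NSDHL, a dehydrogenase of sterol demethylation, stood at 4775, 4434, 3717, 4798 and 4307 with IWR-1. Without it the values were 5255, 5027, 3886, 5066 and 4790 in the same order of lines, lowest in line 4 in both media (0.12 ± 0.05 SE, limma adjusted p = 0.446). LSS, the cyclase that makes lanosterol, stood at 6114, 7921, 6197, 5425 and 4777 with IWR-1 and at 6156, 8690, 6454, 5818 and 5189 without it, highest in line 2 (0.08 ± 0.05 SE). Both genes were higher without IWR-1 in all 5 lines by 0.01 to 0.18 on the log2 scale.

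For the other 7 genes of this branch the lines disagreed in sign. FDFT1, the squalene synthase, was at 0.02 ± 0.05 on the log2 scale (95% interval -0.10 to 0.14), with 14069 to 19520 normalised reads with IWR-1 and 14098 to 20867 without it. SQLE, the squalene epoxidase, was at 0.09 ± 0.06. MSMO1, the methylsterol oxidase, was at 0.10 ± 0.06, with 0.26 in line 8. SC5D, a sterol desaturase, was at 0.08 ± 0.05 and HSD17B7, a ketoreductase of the pathway, at 0.04 ± 0.06. Without line 8 the values of MSMO1 and HSD17B7 were 0.07 and 0.01, and without line 2 that of SQLE was 0.06.

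EBP and TM7SF2 were the 2 sterol genes with a negative log2 change. EBP, the sterol isomerase, was at -0.01 ± 0.07 and varied least between lines (1581 to 1849 with IWR-1 and 1578 to 1859 without it). TM7SF2, a sterol reductase, varied most: 480, 525, 846, 615 and 1388 with IWR-1 and 436, 462, 937, 683 and 1271 without it in lines 1, 2, 4, 8 and 11. The lowest and highest lines differed 2.89-fold with IWR-1 and 2.91-fold without it. Line accounted for 98.3% of its sum of squares and the medium for 0.069%, with higher values without IWR-1 in lines 4 and 8 and lower ones in lines 1, 2 and 11 (log2 change -0.03 ± 0.08 SE).

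Of the regulators, SREBF1, which encodes SREBP1, had the most even change over lines. It stood at 4790, 4994, 3742, 3611 and 4424 with IWR-1 in lines 1, 2, 4, 8 and 11, and at 5325, 5490, 4357, 4266 and 4877 without it. Each line was higher without IWR-1, by 0.14 to 0.24 on the log2 scale (0.18 ± 0.05 SE, 95% interval 0.06 to 0.29, limma adjusted p = 0.183). SREBF2, which encodes SREBP2, was at 0.02 ± 0.07, or -0.05 without line 2: it was higher without IWR-1 in line 2 (0.30) and lower in lines 1, 4, 8 and 11 (-0.09 to -0.02). INSIG1, a sterol-sensitive brake on SREBP processing and itself an SREBP target, was at 0.11 ± 0.07, at 0.26 and 0.28 in lines 4 and 8 and at -0.05 in lines 1 and 2. Without line 8 it was at 0.06. None of these 3 genes was called by limma, edgeR or DESeq2 with the block, and 1, SREBF1, had an unadjusted limma p under 0.05.

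Set against each other, the sterol and the fatty acid and glyceride enzymes had median log2 changes of 0.09 over 17 genes and 0.16 over 8 genes. Without MOGAT1 the second value was 0.13 over 7 genes, and without line 2 (MOGAT1 included) it was 0.08. The lines ranked differently in the 2 branches. The median change of the 5 fatty acid enzymes was 0.58 in line 2, 0.17 in line 1, 0.16 in line 11, 0.05 in line 4 and -0.04 in line 8. That of the sterol enzymes was 0.16 in line 8, 0.15 in line 2, 0.06 in line 4, 0.04 in line 1 and 0.04 in line 11. In line 8, 16 of 17 sterol enzymes were higher without IWR-1 against 2 of 5 fatty acid enzymes; in line 2 the counts were 13 of 17 and 5 of 5. The median over all tested genes lay between -0.0063 and 0.03 in each line. The mouse share changed by -2.26, -4.19, -0.92, -4.22 and -6.63 percentage points in lines 1, 2, 4, 8 and 11, and its part in these changes was not tested. Each line gave 1 well per medium, so a difference between lines cannot be told apart from a difference between wells, and it was not tested.

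**Figure D4:**
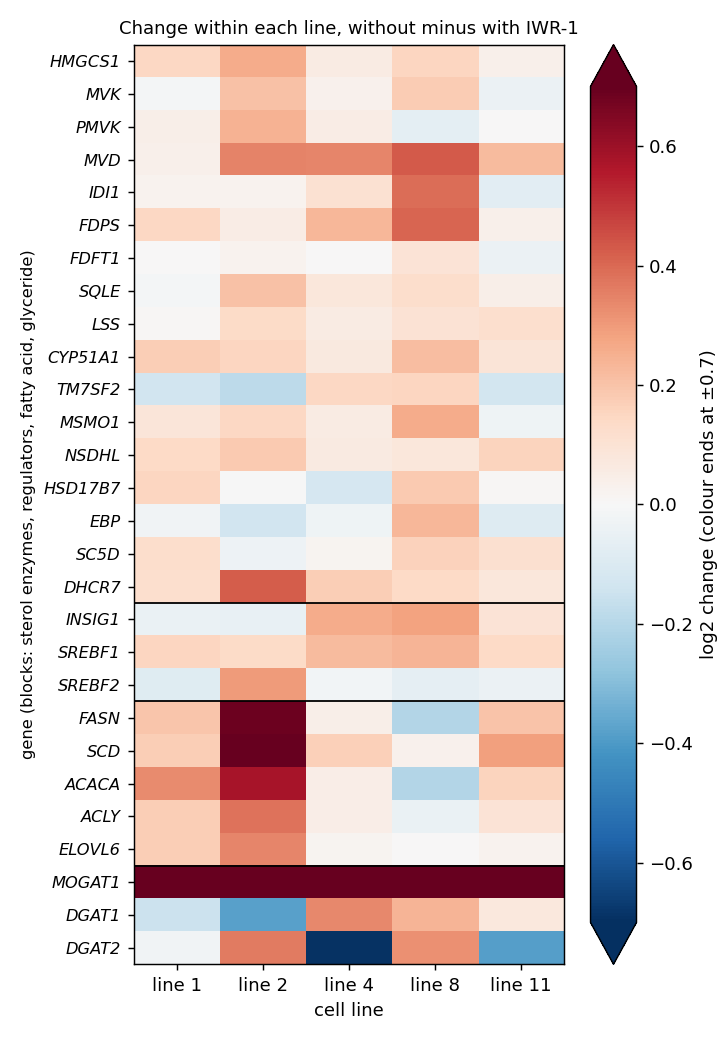
Log2 change without minus with IWR-1 (colour, ending at ±0.7) of each gene (rows) in each cell line (columns), with black rules between sterol enzymes, regulators, fatty acid and glyceride enzymes. MOGAT1 is at the end of the scale in all 5 lines, and the fatty acid block is strongest in line 2 and near or below 0 in line 8.

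Differences between lines were larger than those between media for most of the 28 genes. Line accounted for over 50% of the sum of squares in 26 of them, with a median of 86.7% against 84.5% over all tested genes. These shares are not divided by degrees of freedom, of which line has more than the medium. Noise alone would therefore be expected to give line the larger share. The medium accounted for a median of 4.41%, against 1.71% over all genes, and 46.8% for MOGAT1 and 39.3% for MVD. The sterol enzymes were highest in lines 1 and 8, where their median level lay 0.19 and 0.11 above the mean of the lines on the log2 scale, and lowest in line 11 (-0.18). The fatty acid enzymes were highest in line 2 (0.30) and lowest in line 8 (-0.21). Line 4, which had the highest summed level of fibroblast markers, was below the mean for both groups (-0.12 and -0.13). It was the highest line in both media for 0 of the 28 genes. Lines 1, 2, 4, 8 and 11 were the lowest in both media for 1, 0, 7, 7 and 8 genes, respectively. Over all 18506 tested genes, line 4 was the highest in both media for 3527. The counts of genes lowest in both were 2032, 1438, 3404, 2026 and 1530 in the same order of lines.

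**Figure D5:**
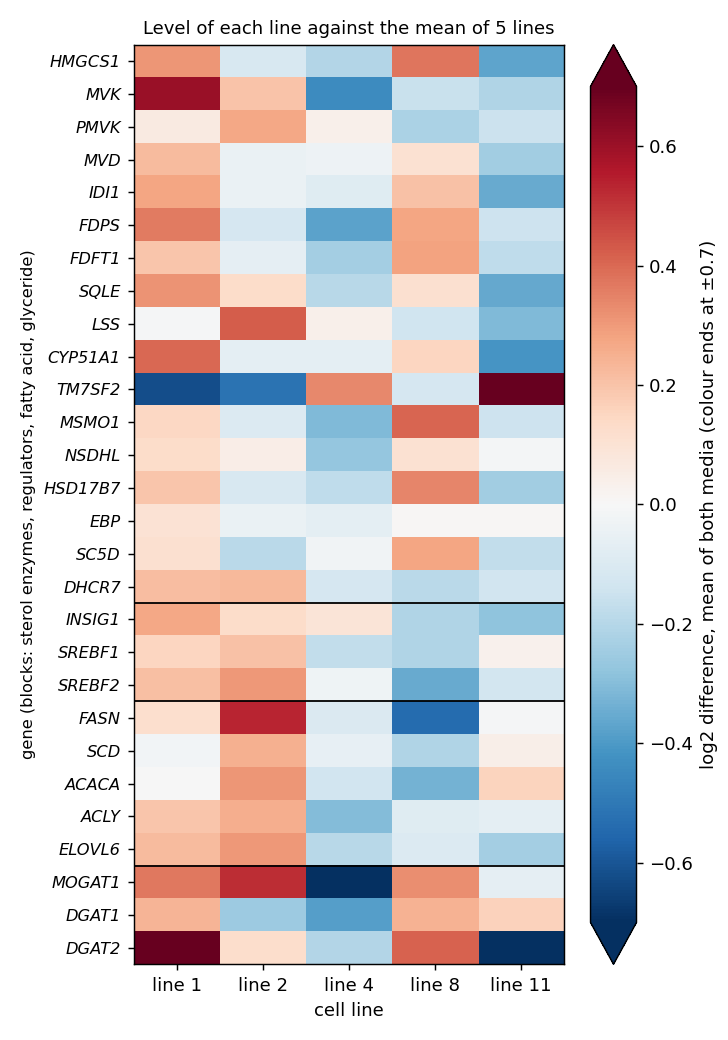
Level of each gene (rows) in each cell line (columns), as the log2 difference from the mean of 5 lines with both media averaged (colour, ending at ±0.7); black rules separate sterol enzymes, regulators, fatty acid and glyceride enzymes. Many sterol genes are high in lines 1 and 8, fatty acid genes in line 2, and TM7SF2 in line 11.

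The neighbouring lipid pathways were read from 6 further lists of 87 genes, of which 83 were tested. None was called by limma or edgeR with the block, and DESeq2 called 1, FADS3. Over all tested genes limma called 0.951% and DESeq2 2.28%, so few calls would be expected in a list of 83. At an unadjusted limma p under 0.05, 10 were higher without IWR-1 and 0 lower, against 6.32% and 3.78% of all tested genes. The median log2 change over the 83 was 0.04. All 12 tested genes of the list of other sterol synthesis and uptake genes had positive changes (median 0.07), with ACAT2, the thiolase that feeds the mevalonate branch, at 0.23 ± 0.06 SE and ACSS2, an acetyl-CoA synthetase, at 0.19 ± 0.07 (limma adjusted p = 0.143 and 0.311).

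On the list of other fatty acid genes, 19 of 24 were positive (median 0.07). FADS3, a member of the fatty acid desaturase family, stood at 180, 172, 553, 440 and 359 normalised reads with IWR-1 in lines 1, 2, 4, 8 and 11 and at 235, 390, 755, 569 and 533 without it. Each line was higher without IWR-1 and line 4 was the highest in both media (log2 change 0.59 ± 0.12 SE, limma adjusted p = 0.0565). FADS2, a desaturase of polyunsaturated fatty acid synthesis, was at 0.20 ± 0.06 and HSD17B12, a reductase of elongation, at 0.19 ± 0.06.

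Glyceride and droplet genes beyond MOGAT1 were centred on 0, with 9 of 16 positive and a median of 0.02. AGPAT2, which makes phosphatidic acid, was at 0.29 ± 0.10, GPAT4, which starts glycerolipid synthesis, at 0.11 ± 0.06 and AGPAT1, of the same family as AGPAT2, at -0.08 ± 0.05. The droplet coat gene PLIN2 was at 0.01 ± 0.06. MOGAT2 was below the filter, with a mean of 0.24 normalised reads with IWR-1 and 0.18 without it.

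The remaining lists held genes that oppose or sense lipid supply. Among 15 genes of lipolysis and fatty acid oxidation 7 were positive (median -0.02), with CPT2, a carnitine transferase of mitochondria, at -0.10 ± 0.06, PPARA, a transcription factor of fatty acid oxidation, at -0.15 ± 0.09 and ABHD5, an activator of lipolysis, at 0.14 ± 0.08. The SREBP machinery gave 3 positive of 8 (median -0.01): INSIG2 (-0.18 ± 0.09) and the protease gene MBTPS2 (-0.13 ± 0.06) were lower without IWR-1 in 5 of 5 lines, and SCAP, the sterol sensor that escorts SREBP, was at 0.11 ± 0.06. Efflux genes gave 5 positive of 8 (median 0.03), with the phospholipid acyltransferase gene LPCAT3 at 0.14 ± 0.06, the sterol exporter gene ABCG1 at 0.14 ± 0.07 and APOE, a lipid carrier, at 0.07 ± 0.09.

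On a list of 5 Wnt target genes, 4 rose in the same fit (CCND1, NKD1, AXIN2 and TCF7), against 0.886% of all tested genes. LEF1 was at 0.61 ± 0.17 SE (limma adjusted p = 0.181), with -0.32 in line 1. Line 4 was the highest line in both media for all 5 genes. With IWR-1, line 4 stood at 3202 normalised reads of AXIN2, against 335 to 1091 in lines 1, 2, 8 and 11 without it. The same order held for NKD1, LEF1 and CCND1 but not for TCF7. This list too was chosen with earlier results of these data known, so it is no test of the withdrawal. Markers of adipocytes, which use MOGAT and DGAT enzymes to store fat, were low in both media. ADIPOQ stayed between 1.05 and 9.73 normalised reads, FABP4 between 0 and 2.31 and LEP between 0 and 5.91. The sum of all 6 adipocyte markers, most of it from PLIN1 and CIDEA, ran from 167 to 345 with IWR-1 and from 240 to 384 without it. Like MOGAT1, this sum was higher without IWR-1 in 5 of 5 lines, with CIDEA at 0.43 ± 0.19 SE (4 of 5 lines, limma adjusted p = 0.486) and PLIN1 at 0.09 ± 0.16 (2 of 5 lines). Its part in the MOGAT1 difference was not tested.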

How the data were processed

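Per the labels, poly(A) RNA of 10 co-culture wells was sequenced from NEBNext Ultra libraries, and reads were mapped to ARS-UCD1.3 (cattle) and, in a separate run, to GRCm39 (mouse). The submitters' processing notes name featureCounts 1.5.0-p3, HISAT2 2.0.5, fastp and StringTie 1.3.3b, with no roles. The authors deposited a normalised signal per gene and library for each species. In each library, 100% of the positive values were whole multiples of 1 step (tolerance 0.01 reads), so reads were recovered by division; no label or header records this scaling. Another 2 columns, of the mouse file, match no sample and were left out. Symbols came from a RefSeq table of ARS-UCD2.0, which matched 24660 of 27590 bovine IDs; because that assembly differs from the one in the labels, no coordinates are given.

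Medium without IWR-1 was compared with medium with it by limma 3.58.1 (R 4.3.3) with a trend on mean level, after log2(value + 1). Genes needed values of 10 or more in 5 or more libraries. Because of the added 1, fold changes of scarce genes are understated. The line was a block, since both wells of a number came from 1 cell line; deviations from the group means correlated within lines at 0.617 to 0.883. Benjamini-Hochberg adjusted p-values over all tested genes were called under 0.05. The p-values rest on the spread of changes between 5 lines, with 1 well per medium in each. For each gene, limma drew this spread toward a trend fitted over all tested genes. Its standard errors, intervals and p-values are therefore not those of the 5 changes alone. The script was tested on simulated data. edgeR 4.0.16 and DESeq2 1.42.0 on recovered reads, other filters, scaling and pseudocounts, a mouse-share covariate and the omission of each line were alternatives. The members and lists were chosen with earlier results of these data known. All members are named; of the other lists, called genes or the 3 with the smallest adjusted p are named, except 1 gene that is not reported here. PLIN2, MOGAT2 and the markers other than DNMT3B, COL1A1 and PLIN1 were named after their values were seen. Values of every well are given for members whose 5 lines share a sign, or whose lines differ over 2-fold in a medium, and for DGAT1.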

Additional observations from a re-analysis of the deposited data

Results flagged for a closer look

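Dixon's test was applied to 84 sets of 5 values, the levels in each medium and the within-line changes of the 28 genes, and 3 sets held a line far from the others; chance alone gives about 1 in 20. The log2 change of EBP was 0.23 in line 8 against -0.13 to -0.03 in the other lines. That of DHCR7 was 0.43 in line 2 against 0.08 to 0.17. That of SREBF2 was 0.30 in line 2 against -0.09 to -0.02.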

How the results depend on the processing

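Over all tested genes, 176 were called with the line as a block, 422 by DESeq2 and 53 without a filter. With no replicate block 0 were called, by limma (105 at an unadjusted p under 0.05) and by edgeR (112; this fit was chosen after seeing the data), and 0 with the mouse share as a covariate (456). Leaving out 1 line gave 31 to 184: 36 without line 1, 31 without line 11 and 101 without line 4. Among the 28 genes the count of 1 became 2 with DESeq2 and 0 in both unpaired fits and with the covariate, and it was 1 in each fit without 1 line. DESeq2 called 1 gene of the 6 other lipid lists, where the other settings called 0. The covariate turned the sign of TM7SF2 (0.087), HSD17B7 (-0.0035), EBP (0.0091) and SREBF2 (-0.014). Leaving out 1 line gave ranges across 0 for FDFT1 (-0.0026 to 0.032), TM7SF2 (-0.075 to 0.0087), EBP (-0.070 to 0.021), SREBF2 (-0.052 to 0.044), DGAT1 (-0.054 to 0.13) and DGAT2 (-0.20 to 0.069). None of these 7 genes was called in any fit, and the cause was not tested. Over the 28 genes and 14 alternatives, 376 of 392 values kept their sign and their side of the threshold. Part of that count was fixed in advance. The log2 change cannot differ in the limma fit without the block or under other filters, and 27 of the 28 genes had no call to lose. MOGAT1, the called gene, lost its call in 3 of the 14. DGAT2, at 25 reads in 1 library, is the member most limited by depth.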
